A study of Saccharomyces cerevisiae with 32 samples.

Results

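The IMP dehydrogenase family of budding yeast was described here through 3 genes, IMD2 (YHR216W), IMD3 (YLR432W) and IMD4 (YML056C), taken by systematic name out of 6696 open reading frames. The samples were 8 natural Saccharomyces cerevisiae isolates, namely BPL, AMH, BTT, CQC, BAN, BED, CMP and CPI, each labelled wild type and grown in SC medium. Each isolate had 2 RNA-seq libraries and 2 ribosome profiling libraries, 32 in all, in a study of how translation varies across genetic backgrounds. The labels state no treatment, and they do not say whether the paired libraries came from separate cultures. The members were chosen by name, but the family was selected on the mRNA and footprint counts of all 8 isolates, so its levels, fold changes and translational efficiencies are descriptions without a test. All 3 genes passed the filter on low counts in every fit.

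IMP dehydrogenase converts inosine monophosphate (IMP) into xanthosine monophosphate, the committed and rate-limiting step towards GMP and GTP. IMP itself is the branch point between the guanine and adenine nucleotides. In laboratory strains IMD2 is held low while guanine nucleotides are plentiful and is induced when they run short, for instance under mycophenolic acid, an inhibitor of the enzyme. That control works through the choice of transcription start: starts upstream, at G residues, give short transcripts that are terminated early by the Nrd1-Nab3-Sen1 pathway, and a start further downstream gives the coding mRNA. IMD3 and IMD4 supply the enzyme in the absence of such a shortage, and the IMD2 protein is the form most resistant to mycophenolic acid.

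In the R64 assembly IMD2 lies near the right end of chromosome VIII (554396 to 555967), IMD3 on chromosome XII (1002557 to 1004128) and IMD4 on chromosome XIII (162194 to 164176). The coding sequences hold 524, 524 and 525 codons, so per-length and per-read comparisons of the 3 genes nearly coincide. IMD4 spans 1983 bases because it has an intron, and the small nucleolar RNA gene SNR54 (163535 to 163620) lies within that span. Levels are given in counts per 1000000 reads on open reading frames (CPM), and per-length levels in CPM per kilobase of coding sequence. The mRNA libraries held 3703931 to 11570247 reads and the footprint libraries, which record ribosome-protected mRNA fragments, 27621 to 4391002. BAN, CMP and CQC had few footprint reads on the family, so read counts are given where they limit a value. Mitochondrial open reading frames took 1.17% to 21.3% of the mRNA reads, which lowers the CPM of nuclear genes in the libraries where they are abundant.

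IMD2 mRNA was abundant in BPL and scarce to moderate in the other isolates. It stood at 486 and 509 CPM in the BPL libraries, from 4934 and 5031 reads. The next isolate was BTT, with 53.5 and 44.4 CPM. Both BPL libraries lay far above every other library. CQC had 23.1 and 19.4 CPM, and BAN had 55.6 and 5.40 CPM, a pair whose range spans both BTT and CQC. AMH had 10.9 and 5.39 CPM, CPI 7.25 and 7.09 CPM, and CMP 6.36 and 5.36 CPM. These 3 isolates formed a low group in which the AMH libraries covered the range of CPI. BED was lowest, with 0.635 and 1.41 CPM from 5 and 15 reads.

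The mean IMD2 mRNA level was 497 ± 15.97 CPM in BPL (SD, n = 2) and 49.0 ± 6.42 CPM in BTT (SD, n = 2), a ratio of 10.2. From BPL to BED, at 1.02 ± 0.55 CPM (SD, n = 2), the ratio was 486, or 8.93 on the log2 scale. Of 5456 genes averaging at least 5 CPM in mRNA with reads in every isolate, 58 had a range that wide or wider. The median range was 1.94, and genes without reads in an isolate were left out. On the scale of CPM per kilobase IMD2 ranked 522nd of 6696 open reading frames in BPL and 5885th in BED. The fitted log2 fold change of each isolate over the mean of the other 7 was 5.39 ± 0.25 (SE) in BPL, 1.55 ± 0.31 in BTT, 1.19 ± 0.37 in BAN and 0.60 ± 0.37 in CQC. It was −1.23 ± 0.43 in AMH, −1.35 ± 0.42 in CPI, −1.54 ± 0.49 in CMP and −4.62 ± 0.60 in BED. These contrasts share their libraries, since each isolate is part of the comparison for the other 7. The BAN value rested on 1 library: without the first BAN library it was −0.93.

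The 2 BAN mRNA libraries differed 10.3-fold in IMD2, with 228 reads in the first and 20 in the second. Of 5563 genes compared between these libraries, 36 were at least as far apart. IMD3 differed 2.22-fold between them and IMD4 1.32-fold. The second BAN library therefore sat with the low isolates for IMD2 and the first with BTT. In the other 7 isolates the paired mRNA libraries differed at most 2.22-fold in IMD2, in BED.

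**Figure D1:**
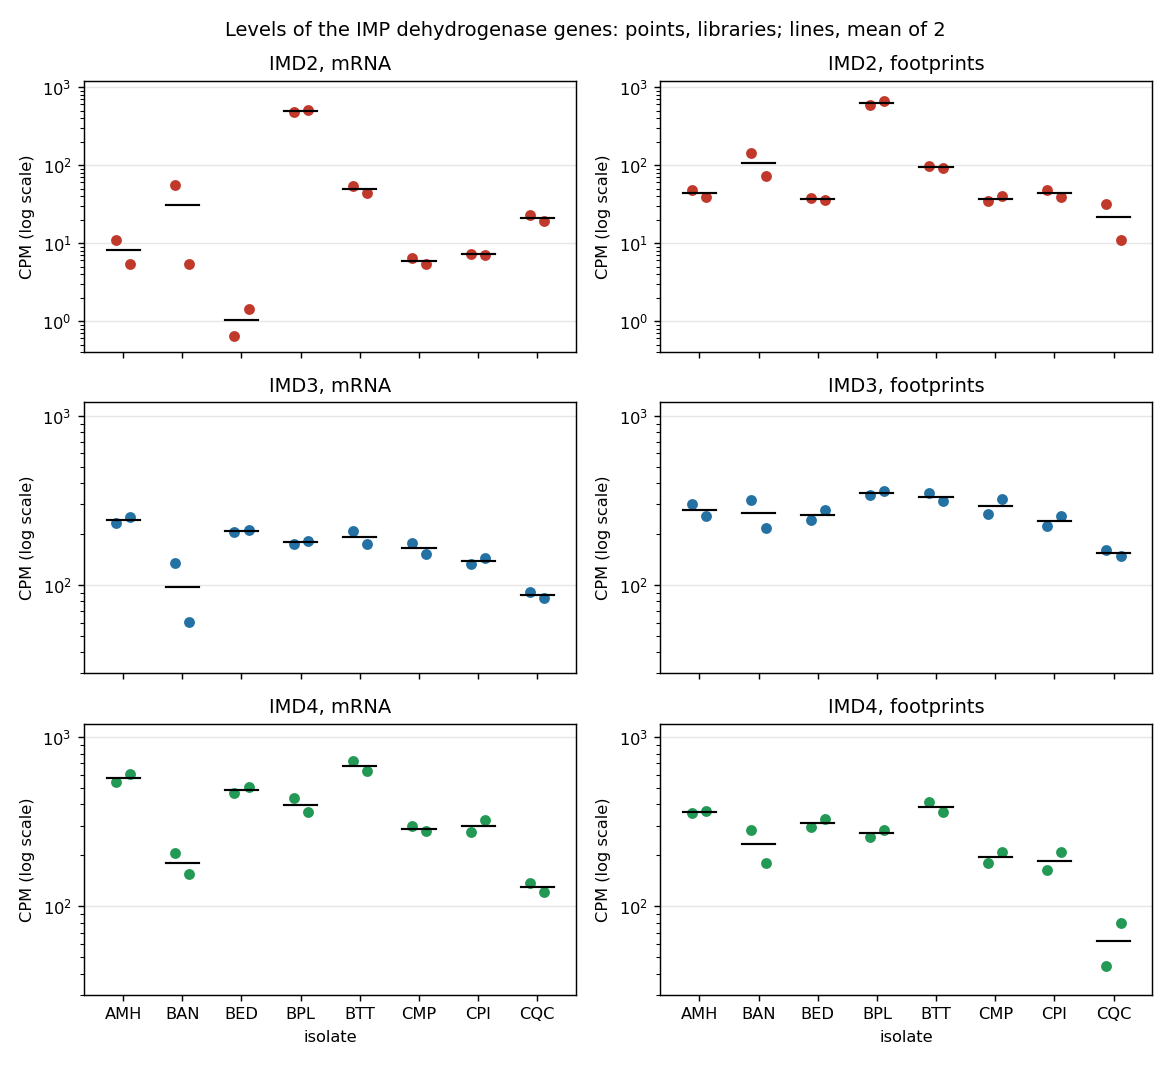
CPM (log scale) of IMD2, IMD3 and IMD4 in the 2 mRNA libraries (left) and 2 footprint libraries (right) of each isolate; points are libraries and lines their mean. IMD2 mRNA stands at 486 and 509 CPM in BPL and at no more than 55.6 CPM in every other library, while IMD3 and IMD4 mRNA span 2.76-fold and 5.23-fold between isolate means.

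IMD2 footprints had the same isolate on top over a narrower span. BPL had 591 and 663 CPM, from 378 and 677 reads. BAN followed with 142 and 72.4 CPM, which rest on 9 and 2 reads, and BTT had 97.7 and 92.0 CPM. BPL lay above all other libraries, and the BAN pair enclosed the BTT pair. CPI had 48.4 and 39.3 CPM, AMH 48.7 and 38.8 CPM, CMP 34.4 and 40.1 CPM and BED 38.2 and 35.9 CPM. The order within these 4 isolates could not be told from the spread of their libraries. CQC was lowest, with 32.1 and 10.9 CPM from 8 and 3 reads. The mean in BPL was 627 ± 51.5 CPM (SD, n = 2), against 107 ± 49.3 CPM in BAN (SD, n = 2), a ratio of 5.85. The full range was 29.2-fold. Of 4838 genes above the same mRNA limit with footprint reads in every isolate, 288 had a footprint range at least as wide. The fitted log2 fold change over the other 7 was 3.82 ± 0.14 in BPL and −1.96 ± 0.37 in CQC. BED, whose IMD2 mRNA was the lowest, was at −0.74 ± 0.23 in footprints.

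IMD3 was the steadiest member. Its mRNA reached 231 and 251 CPM in AMH, the isolate with the highest mean, and 91.2 and 83.6 CPM in CQC, the lowest. BED had 205 and 212 CPM, BTT 210 and 175 CPM, BPL 175 and 183 CPM, and CMP 176 and 153 CPM. From BED to CMP each isolate overlapped its neighbour in the order. CPI had 132 and 144 CPM, and BAN 134 and 60.5 CPM. The means spanned 2.76-fold, and 3895 of 5456 genes had at least as wide a range. The log2 fold change over the other 7 was 0.74 ± 0.12 in AMH, −0.76 ± 0.14 in CQC and 0.01 ± 0.13 in BPL. IMD3 mRNA in BPL was thus near the middle of the isolates, with a sign that changed with the scaling.

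IMD3 footprints were highest in BPL, at 339 and 362 CPM, and lowest in CQC, at 161 and 149 CPM. BTT had 350 and 315 CPM and overlapped BPL. Between BPL and CPI, at 223 and 257 CPM, each isolate overlapped the next in the order, and CQC stood apart below them. The log2 fold change over the other 7 was 0.58 ± 0.14 in BPL, 0.24 ± 0.15 in AMH and −0.96 ± 0.19 in CQC. In AMH it was 0.049 when library totals were used without trimmed mean of M-values (TMM) scaling.

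IMD4 was the most abundant member in 7 of the 8 isolates in mRNA. It reached 724 and 628 CPM in BTT, 545 and 603 CPM in AMH, 466 and 505 CPM in BED and 437 and 362 CPM in BPL. The library ranges of these 4 isolates did not overlap, so their order held for both libraries of each. CPI had 275 and 323 CPM and CMP 297 and 278 CPM, and these 2 overlapped. BAN had 206 and 155 CPM, and CQC was lowest with 136 and 122 CPM. The range was 5.23-fold. The log2 fold change over the other 7 was 0.92 ± 0.10 in BTT, 0.90 ± 0.10 in AMH, 0.07 ± 0.11 in BPL and −1.39 ± 0.12 in CQC.

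IMD4 footprints kept BTT at the top, with 413 and 361 CPM, and CQC at the bottom, with 44.2 and 79.8 CPM from 11 and 22 reads. AMH had 358 and 367 CPM and overlapped BTT. The range was 6.24-fold, and CQC, at 62.0 ± 25.2 CPM (SD, n = 2), stood apart below CPI, the next isolate, at 186 ± 31.3 CPM (SD, n = 2). The log2 fold change over the other 7 was −2.18 ± 0.25 in CQC, 0.98 ± 0.15 in AMH and 0.86 ± 0.14 in BTT.

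**Figure D2:**
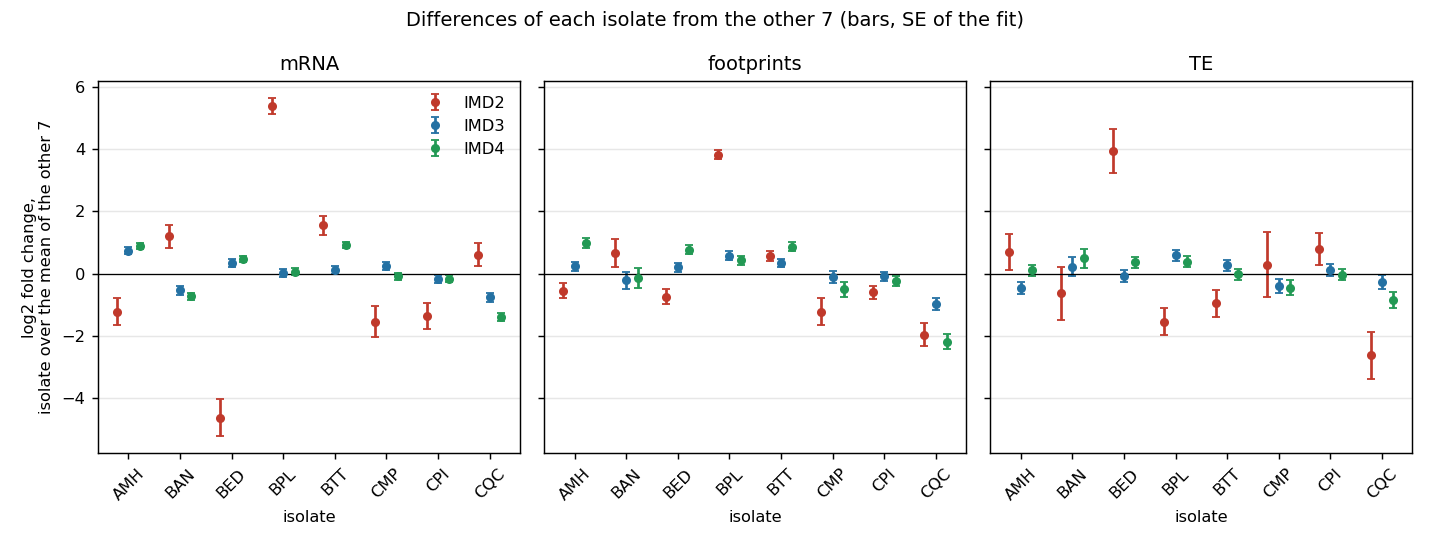
Log2 fold change of each isolate over the mean of the other 7 for IMD2, IMD3 and IMD4 in mRNA, footprints and translational efficiency (TE); bars are SE of the fit. IMD2 reaches 5.39 in BPL and −4.62 in BED in mRNA, while every IMD3 and IMD4 mRNA value lies between −1.39 and 0.92.

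Across the 8 isolates, the mean log2 mRNA levels of IMD3 and IMD4 moved together, with Pearson's r of 0.945 and Spearman's rho of 0.905. Without BAN and CQC, the isolates farthest from the median of IMD3, r was 0.791. IMD2 showed no such relation in mRNA, with r of −0.175 to IMD3 and −0.058 to IMD4. In footprints r was 0.704 between IMD2 and IMD3 (rho 0.643) and 0.432 between IMD2 and IMD4 (rho 0.333), and without BAN and BPL it was 0.843 and 0.789. Between IMD3 and IMD4 footprints r was 0.868 (rho 0.619), and 0.563 without BPL and CQC. These correlations describe 8 isolate means that share libraries and their scaling. How reads that match several loci were counted is not given in the sources used here. Whether reads of IMD2, IMD3 and IMD4 can be told apart was not tested, in mRNA or in footprints. That limit also holds for the levels, fold changes, shares and efficiencies of the members, among them the IMD3 footprints in BPL.

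The 3 genes together amounted to 684 ± 19.5 CPM per kilobase in BPL mRNA (SD, n = 2), the highest of the isolates, and to 151 ± 11.6 CPM per kilobase in CQC mRNA (SD, n = 2), the lowest. Without IMD2 the order differed: IMD3 and IMD4 summed to 368 CPM per kilobase in BPL, within the span of 138 in CQC to 552 in BTT. In footprints the family total was 794 ± 54.7 CPM per kilobase in BPL (SD, n = 2), 517 in BTT and 151 in CQC.

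IMD2 made up 46.3% ± 2.81 of the family mRNA in BPL (SD, n = 2), beside 37.0% ± 3.80 for IMD4 and 16.7% ± 0.99 for IMD3. BPL was the isolate in which IMD2 led. The IMD2 share was 8.93% ± 0.42 in CQC, 8.26% ± 8.23 in BAN and 5.34% ± 0.12 in BTT (SD, n = 2 each). It was between 0.146% in BED and 1.62% in CPI in the remaining 4. In footprints the IMD2 share was 50.2% ± 0.66 in BPL, 17.3% ± 2.66 in BAN (SD, n = 2 each) and 6.11% to 11.7% elsewhere. IMD2 thus took a larger part of the footprints than of the mRNA in all 8 isolates, though in CQC the shares, 9.06% ± 6.38 in footprints and 8.93% ± 0.42 in mRNA (SD, n = 2 each), lay within the spread.

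IMD3 gained on IMD4 between mRNA and footprints in every isolate. In mRNA the log2 ratio of IMD3 to IMD4 per coding length ran from −1.81 in BTT to −0.56 in CQC. In footprints it ran from −0.39 in AMH to 1.38 in CQC, and it was above 0 in BAN, BPL, CMP, CPI and CQC. The difference, footprints minus mRNA, was 0.86 in AMH, the smallest, and 1.94 in CQC, the largest.

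**Figure D3:**
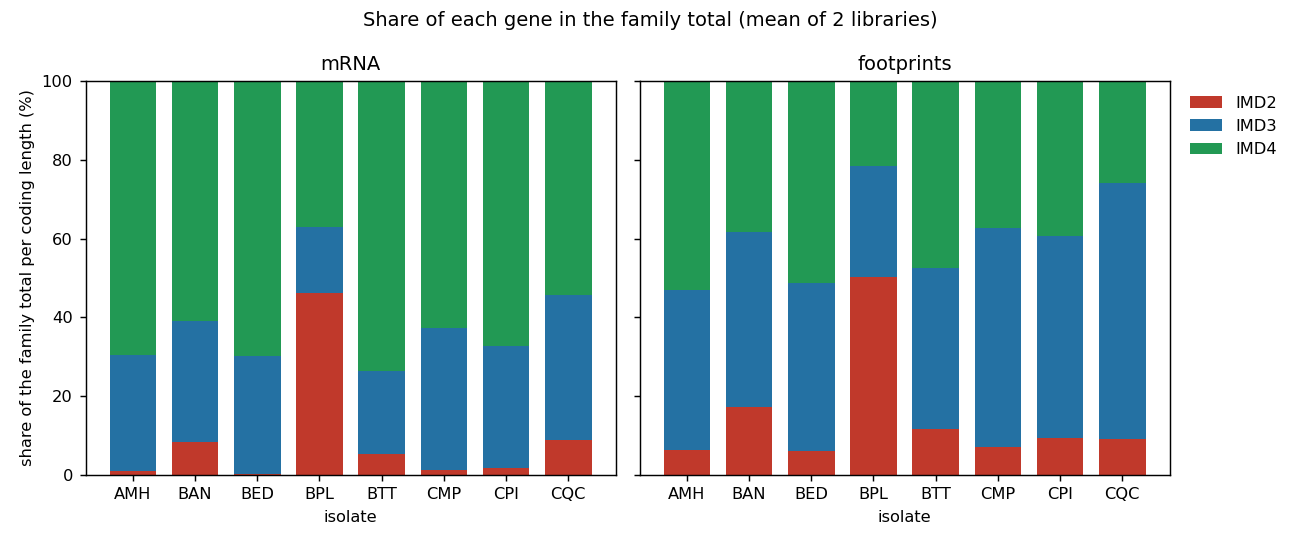
Share of IMD2, IMD3 and IMD4 in the family total per coding length, in percent, by isolate in mRNA and in footprints (mean of 2 libraries). IMD2 holds 46.3% of the mRNA and 50.2% of the footprints in BPL, and IMD4 is the largest part of the mRNA elsewhere.

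Translational efficiency, the log2 ratio of footprint CPM to mRNA CPM, set the members apart. For IMD3 it was 0.20 in AMH to 1.45 in BAN, above 0 in all 8 isolates. For IMD4 it was −1.06 in CQC to 0.37 in BAN, below 0 in the other 7 isolates. For IMD2 it had the widest span, 0.02 in CQC, 0.33 in BPL, 0.95 in BTT, 1.81 in BAN, 2.43 in AMH, 2.61 in CPI, 2.67 in CMP and 5.18 in BED. The ratio was therefore highest where IMD2 mRNA was scarcest, apart from CQC, with the mRNA level itself as its denominator. In the fit over both assays, the IMD2 difference in efficiency from the other 7 was −1.54 ± 0.43 in BPL, −2.62 ± 0.76 in CQC and 3.94 ± 0.71 in BED. The BED value rests on 20 mRNA reads, and the CQC value on 11 footprint reads.

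The slope of log2 footprints on log2 mRNA over the 8 isolate means was 0.47 for IMD2 (Pearson's r 0.816, Spearman's rho 0.714), 0.47 for IMD3 (r 0.673, rho 0.476) and 0.90 for IMD4 (r 0.877, rho 0.905). Without BPL the IMD2 slope was 0.22 and r 0.493, so its relation leaned on that isolate. Without the 2 isolates farthest in mRNA, r was 0.552 for IMD2, 0.213 for IMD3 and 0.748 for IMD4.

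**Figure D4:**
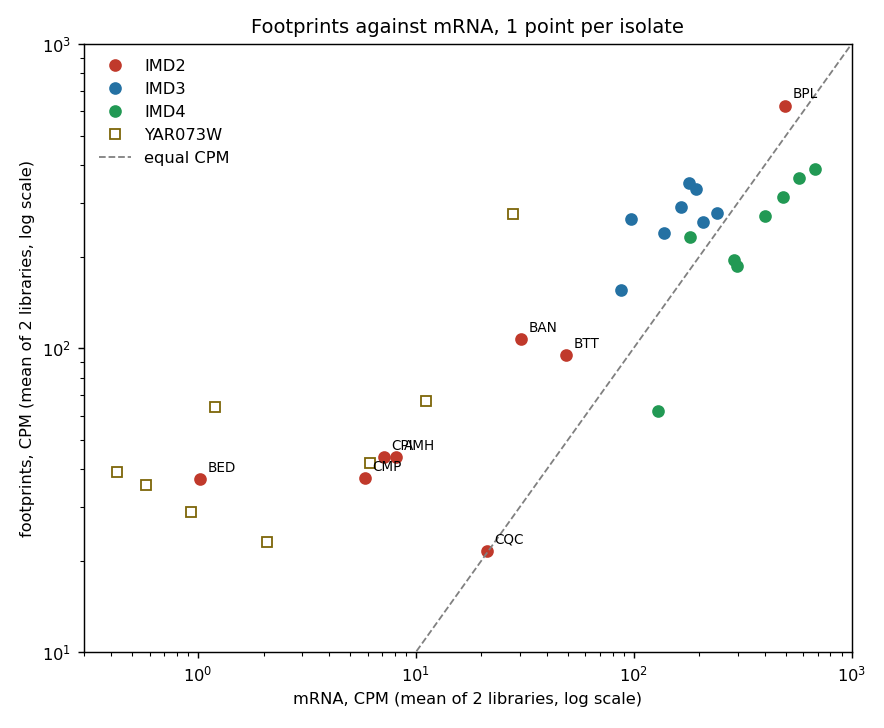
Footprint CPM against mRNA CPM (both log scale, means of 2 libraries) for IMD2, IMD3, IMD4 and the open reading frame YAR073W, 1 point per isolate, with a dashed line at equal CPM. IMD2 footprints stay between 37.0 and 43.9 CPM in AMH, BED, CMP and CPI while its mRNA runs from 1.02 to 8.13 CPM, and all IMD4 points but that of BAN lie below the line.

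A second open reading frame was also highest in BPL in both assays and bears on how IMD2 footprints can be read. YAR073W, which has no gene record in the R64 table used here, had r of 0.946 to IMD2 in mRNA. Its sequence was not compared with that of IMD2, so it is not taken here as an independent gene that resembles IMD2. In the 7 isolates other than BPL its mRNA averaged 3.22 CPM. It thus passed the 5 CPM limit for likeness only with BPL counted, and its rank is not given weight. Its mRNA stood at 29.5 and 26.5 CPM in BPL, and its footprints at 275 and 277 CPM. In mRNA its reads amounted to 5.64% of those of IMD2 in BPL, 562 against 9965. In footprints they amounted to 43.5%, 459 against 1055, and in AMH, BED and CQC they exceeded those of IMD2 at 146%, 107% and 109%. Outside BPL its footprints lay between 22.9 and 66.8 CPM while its mRNA lay between 0.43 and 11.2 CPM, more footprints than mRNA on the CPM scale, as for IMD2. It also repeated the BAN split, with 47 reads in the first mRNA library and 3 in the second, a 14.2-fold difference in CPM. How reads that match several loci were counted is not given in the sources used here, and whether these loci share reads was not tested. Summing IMD2 with YAR073W and YAR075W gave a log2 fold change in BPL of 4.94 in mRNA and 3.31 in footprints, beside 5.39 and 3.82 for IMD2 alone.

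The genes that make, use or salvage the nucleotides around the enzyme differed in both directions in BPL. Of 66 genes in 6 lists, 13 were higher and 23 lower in BPL mRNA (edgeR quasi-likelihood test, Benjamini-Hochberg adjusted p under 0.05). Over all 6269 genes tested 27.6% were higher and 19.1% lower. The median log2 fold change was −0.14 for the 66 genes and 0.04 for all genes. With library totals in place of TMM scaling the 66 genes split into 19 higher and 11 lower, as the median of all genes shifted by 0.23. Without the first BPL mRNA library 8 were higher, and without the second 10 were lower. In footprints 9 of the 66 were higher and 5 lower, beside 16.1% and 9.07% of all 5347 genes. Without the first BPL footprint library 4 were higher, and without the second 3 were higher and 2 lower. In translational efficiency 1 of the 66 was called, beside 5.43% of 5337 genes, with 3 called by DESeq2 and 0 to 4 with 1 library left out. The 1 gene, named after its values were seen, was BAS1, an activator of purine synthesis genes, at −1.95 ± 0.38 (edgeR adjusted p = 0.00254), a call lost without the second BPL footprint library. BAS1 was called in efficiency in BTT too, at −1.95 ± 0.29 (edgeR adjusted p = 6.15e-05), in a contrast that shares libraries with BPL. In AMH it went the other way, at 1.36 ± 0.33 (edgeR adjusted p = 0.00806), a call lost without the first AMH footprint library.

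In the guanine branch, 2 of 8 genes rose and 3 fell in BPL mRNA, beside 27.6% and 19.1% of all genes. HPT1, the hypoxanthine-guanine phosphoribosyltransferase of salvage, had 237 and 175 CPM in BPL against 281 CPM averaged over the other 7. Its log2 fold change was −0.63 ± 0.12 in mRNA (edgeR adjusted p = 0.000599) and −0.70 ± 0.17 in footprints (edgeR adjusted p = 0.00283). The BPL footprint libraries had 103 and 86.2 CPM, which overlapped those of CPI, at 97.6 and 105 CPM. The footprint call in BPL was lost without the second BPL footprint library. GUA1, the GMP synthase that acts directly after IMP dehydrogenase, had 328 and 261 CPM in BPL and 341 CPM in the other 7, a change of −0.38 ± 0.13 (edgeR adjusted p = 0.0247) that did not pass without TMM scaling (−0.15) or without the second BPL mRNA library. PNP1, purine nucleoside phosphorylase, rose by 0.59 ± 0.09 and ISN1, an IMP nucleotidase, by 0.47 ± 0.09 in mRNA. GUK1, guanylate kinase, was not called at −0.25 ± 0.11.

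Of 16 genes leading to IMP, 4 rose and 5 fell in BPL mRNA, beside 27.6% and 19.1% of all genes. Among them were ADE17, which makes IMP, at 0.64 ± 0.11, and ADE4, of the first committed step, at −0.52 ± 0.12. PRS1, a phosphoribosyl pyrophosphate synthetase, was at −0.51 ± 0.10. The ADE17 call was lost without CQC, and the ADE4 call without TMM scaling or the second BPL mRNA library. In the adenine branch and purine uptake, 2 of 8 rose and 2 fell. FCY2, the purine-cytosine permease, had 790 and 464 CPM in BPL against 1407 CPM in the other 7 and fell by 1.03 ± 0.18 on the log2 scale in mRNA (edgeR adjusted p = 0.000313) and was at −1.40 ± 0.24 in footprints. APT1, adenine phosphoribosyltransferase, was at −0.92 ± 0.12 in mRNA. ADE12 and AMD1, the adenylosuccinate synthase and AMP deaminase, were not called, at −0.27 ± 0.13 and 0.17 ± 0.10.

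The one-carbon list had 2 of 8 higher and 4 lower in BPL mRNA, beside 27.6% and 19.1% of all genes. ADE3, the cytoplasmic trifunctional tetrahydrofolate enzyme, had 940 and 976 CPM in BPL against 509 CPM in the other 7. Its log2 fold change was 1.28 ± 0.08 in mRNA (edgeR adjusted p = 1.5e-08) and 1.17 ± 0.13 in footprints (edgeR adjusted p = 8.05e-08). It rose in AMH and BTT mRNA too, at 0.98 ± 0.08 and 0.89 ± 0.08, in contrasts that share libraries with BPL. In BTT footprints ADE3 was at 0.84 ± 0.13 (edgeR adjusted p = 9.46e-06). In AMH its efficiency was lower, at −0.92 ± 0.15 (edgeR adjusted p = 0.000188). Of 14 pyrimidine genes 1 rose and 6 fell, led by FUR4, the uracil permease, at −1.14 ± 0.16, and FUR1, uracil phosphoribosyltransferase, at −0.98 ± 0.12. Of 12 genes for start-site choice, early termination and elongation, 2 rose and 3 fell in mRNA. The RNA polymerase II subunit RPB9 was at −0.71 ± 0.10, the coactivator SUB1 at −0.68 ± 0.12 and the nuclear exosome nuclease RRP6 at −0.55 ± 0.10, the last not called without TMM scaling. The helicase SEN1 was at 0.52 ± 0.14, a call lost without the second BPL mRNA library, and the phosphatase SSU72 at 0.48 ± 0.10. None of these 12 was called in BPL footprints, where 16.1% of all genes were higher and 9.07% lower. The medians were −0.06 for the list and 0.10 for all genes.

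AMH, with the highest IMD3 mRNA, had more pathway genes higher. Of the 66, 33 were higher and 11 lower in mRNA, beside 33.4% and 30.4% of all genes, with medians of 0.34 and 0.02. In footprints 18 were higher and 6 lower, beside 19.9% and 14% of all genes, and 11 were higher without TMM scaling. Without the second AMH library of each assay these became 5 lower in mRNA, and 8 higher and 2 lower in footprints. In translational efficiency 6 were called, beside 9.44% of all genes. That count was 16 without TMM scaling, 10 with DESeq2 and 3 without the first AMH footprint library. Of the 16 genes leading to IMP 11 rose and 2 fell, with ADE17 at 1.498 ± 0.102 and ADE1, of the middle of that route, at 1.22 ± 0.13 in mRNA. The 2 that fell in mRNA were the purine gene activators BAS1, at −0.82 ± 0.14, and PHO2, at −0.95 ± 0.15. The efficiency of BAS1 was higher, at 1.36 ± 0.33 (edgeR adjusted p = 0.00806), a call lost without the first AMH footprint library. ADE12 had 883 and 777 CPM in AMH against 455 CPM in the other 7, a log2 fold change of 0.92 ± 0.12 (edgeR adjusted p = 9.99e-06). SHM2, cytoplasmic serine hydroxymethyltransferase, was at 1.94 ± 0.13 and ADK1, adenylate kinase, at 1.73 ± 0.09. GUK1 rose by 0.85 ± 0.10 (edgeR adjusted p = 2.5e-06) and HPT1 by 0.59 ± 0.11, while GUA1 was not called at −0.20 ± 0.13.

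BTT, with the highest IMD4 mRNA, had 17 of the 66 higher and 18 lower, beside 32.9% and 19.9% of all genes, and 31 higher and 5 lower without TMM scaling. In footprints 11 were higher and 10 lower, beside 18.7% and 13.2%, and in translational efficiency 2 were called, beside 6.03%. The last count was 4 without TMM scaling, 4 with DESeq2 and 1 to 5 with 1 library left out. Without the first BTT mRNA library 8 were higher and 9 lower, without the second 10 were lower, and without the second footprint library 5 were lower in footprints. FCY2 had 3925 and 2721 CPM in BTT against 1022 CPM in the other 7, a log2 fold change of 1.71 ± 0.14 (edgeR adjusted p = 2.29e-07). GCV1 and GCV3, subunits of the mitochondrial glycine cleavage system, were at −1.71 ± 0.21 and −1.42 ± 0.17. URA1, dihydroorotate dehydrogenase, was at 1.19 ± 0.10. In CQC, lowest for IMD3 and IMD4, 24 of the 66 were higher and 32 lower in mRNA, beside 35.6% and 37.2% of all genes. In CQC footprints 15 were higher and 21 lower, beside 26.2% and 23.3%, and 7 were called in translational efficiency, beside 9.71%. The last count was 16 without TMM scaling, 12 with DESeq2 and 3 to 10 with 1 library left out. GUK1 and ADE12 had their lowest mRNA in CQC too, at 35.8 ± 4.23 and 201 ± 8.87 CPM (SD, n = 2 each). GUA1 was lowest there as well, at 230 ± 26.1 CPM (SD, n = 2), with libraries that overlapped those of CPI. HPT1 and AMD1 went the other way in CQC mRNA, at 0.29 ± 0.11 (edgeR adjusted p = 0.0268) and 0.36 ± 0.10 (edgeR adjusted p = 0.00545).

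**Figure D5:**
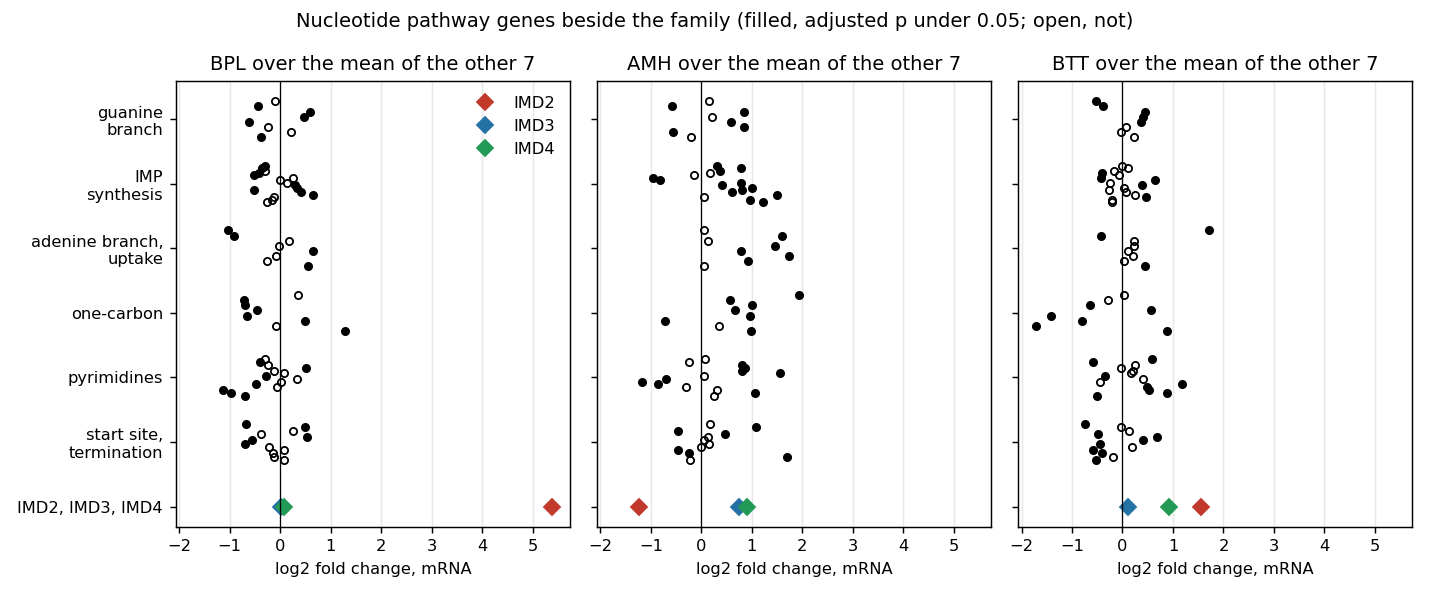
Log2 fold change in mRNA of the 66 pathway genes by list, and of IMD2, IMD3 and IMD4, in BPL, AMH and BTT over the mean of the other 7 isolates; filled points have an edgeR adjusted p under 0.05. In BPL the pathway genes reach 1.28 in size, and IMD2, of a family selected on these counts, is at 5.39.

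The genes beside IMD2 were compared because the locus is close to a chromosome end. PHO12, an acid phosphatase gene that ends 893 bases before IMD2, had 77.2 and 70.8 CPM in BPL mRNA against 23.9 CPM in the other 7. Its log2 fold change was 1.795 ± 0.145 (edgeR adjusted p = 2.04e-07). PHO12 was also higher in CQC, at 58.4 and 51.8 CPM, where IMD2 averaged 21.3 CPM. In BPL footprints PHO12 had 29.7 and 24.5 CPM and was not called, at 0.01 ± 0.25. PHO11, its close copy on another chromosome, had 43.5 CPM in BPL mRNA, and reads of the 2 genes may not be separable. On the other side, YHR218W had 54.6 and 62.8 CPM in BPL, 65.8 and 56.0 CPM in BTT and 34.6 and 29.3 CPM in CPI. YHR219W had 110 and 123 CPM in BPL, 114 and 100 CPM in BTT and 84.5 and 88.5 CPM in CPI. Both were at 0 CPM in the CMP libraries, which enters every fitted contrast of these 2 genes, so their levels alone are given. CPI, with YHR219W at 86.5 CPM on average, had IMD2 at 7.17 CPM. YHR214C-B, a neighbour before IMD2, was at 0 CPM in both BPL mRNA libraries. It was at 1004 and 1119 CPM in BTT, and at 1214 and 1123 CPM in CPI. BED, AMH, CMP, BAN and CQC had means of 16.1, 5.40, 1.86, 0.12 and 0.081 CPM. Whether reads of YHR214C-B, YHR218W and YHR219W can be told from those of other loci was not tested.

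Around IMD3 in AMH, 4 of 10 neighbours were higher and 2 lower in mRNA, beside 33.4% and 30.4% of all genes. TSR2, a ribosome biogenesis factor, was at 1.03 ± 0.11 and CAR2, ornithine transaminase, at 1.16 ± 0.12. Around IMD4 in BTT, 5 of 9 tested neighbours were higher and 1 lower, beside 32.9% and 19.9% of all genes. Among them were CMP2, a calcineurin subunit gene 199 bases away, at 0.51 ± 0.10 and CYB2, a lactate dehydrogenase, at −1.07 ± 0.16.

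By Pearson's r of log2 mRNA over the 8 isolate means, COS5 was most alike to IMD2 (r 0.951, Spearman's rho 1). COS5 is of the subtelomeric COS family. YAR073W, which passed the 5 CPM limit only with BPL counted, followed, and then IRC3 (0.910), FKS3 (0.908) and ECM22 (0.900). Whether YAR073W shares reads with IMD2 was not tested. IMD3 and IMD4 ranked 4286th and 3549th of 5569 genes in likeness to IMD2. For IMD3 the most alike were CSN9 (0.982), the importin KAP123 (0.979), the proteasome subunit PRE9 (0.976), DCD1 (0.972) and BET5 (0.972), and IMD4 was 75th (0.940). For IMD4 they were UTP10, of ribosome assembly (0.988), the nucleoporin NUP85 (0.987), VPS4 (0.984), DPH6 (0.981) and the importin PSE1 (0.979), and IMD3 was 121st.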

How the data were processed

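The deposited files hold whole-number counts of reads per open reading frame, 1 file per library, made by the authors, and a second value equal to the coding codons less 10. The submitters' processing notes name CASAVA 1.8, STAR 2.7.0a and the sacCer3 build. RNA-seq used a stranded kit, per the labels' protocols. For the counting tool, the strand setting and reads with several matches, the method is not given in the sources used here.

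Gene names and coordinates came from a RefSeq gene table of R64, which matched 6008 of 6696 open reading frames. Coding length was taken as the second value plus 10 codons, which equals the annotated length of IMD2 and IMD3. CPM used the total of all open reading frames. Each isolate was compared with the mean of the other 7 by edgeR 4.0.16 (R 4.3.3), with TMM scaling, a filter on low counts (filterByExpr, minimum 10), the quasi-likelihood test and Benjamini-Hochberg adjustment over all genes at 0.05. All 16 libraries of an assay entered each fit, and translational efficiency was an interaction term over all 32. Standard errors are the log2 fold change over the square root of F. The fits were also run on simulated counts with a fixed spread and a limited set of genes changed in BPL alone. That setting is simpler than these data, so it gives no error rate for the calls. Replicate libraries may be technical, and the p-values then measure only the spread between libraries. Counting intervals were not printed, since PCR reads are not independent molecules.

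The members, lists and tests were chosen with earlier results of these data known. Named genes were the members, GUA1, GUK1, HPT1, ADE12 and AMD1, up to 6 called genes per list in the isolate of each member's highest mRNA, the called or nearest neighbours, and the 5 most alike genes per member. Likeness was computed over 5569 genes above 5 CPM. Sums of IMD2 with YAR073W and YAR075W and fits without CQC were added after seeing the data. Alternatives were DESeq2 1.42.0, totals without TMM, no filter, mitochondrial open reading frames left out, a replicate block, BAN left out and each library left out.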

Additional observations from a re-analysis of the deposited data

How the results depend on the processing

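Of 2046 values of the 3 members recomputed under the alternatives, 45 moved by more than 1 replicate SD from the value reported. That SD, pooled over isolates on the log2 scale, was 0.87 for IMD2 mRNA, 0.30 for IMD3 mRNA and 0.16 for IMD4 mRNA. IMD2 mRNA could therefore shift further than IMD3 or IMD4 without being counted. The sign changed in 52 of the 2046 values, spread over 21 contrasts with a median size of 0.20 on the log2 scale. The largest of these 21 was IMD2 mRNA in BAN, −0.93 without the first BAN library and 1.88 without the second, the range over all libraries left out. IMD2 in BAN then also ran from −0.26 to 0.92 in footprints and from −1.54 to 1.52 in efficiency. In translational efficiency DST1 in AMH was −1.56 and ran from −2.51 to 0.12 with 1 library left out, the last without the first BAN footprint library; the cause was not tested. With library totals in place of TMM, IMD4 mRNA was 1.17 in BTT and −1.56 in CQC, and IMD3 footprints 0.049 in AMH. The pathway genes then came to 11 lower in BPL mRNA, 31 higher and 5 lower in BTT mRNA, 9 lower in BPL footprints, 11 higher in AMH footprints, and 16, 4 and 16 in translational efficiency in AMH, BTT and CQC. That scaling shifted the median of all genes by 0.23 in BPL mRNA, 0.25 in BTT mRNA and −0.38 in BPL translational efficiency. DESeq2 called 3, 10, 4 and 12 pathway genes in translational efficiency in BPL, AMH, BTT and CQC. Same-numbered mRNA and footprint libraries deviated together with a correlation over 0.1 in 7 of 8 isolates and of 0.0588 in BAN. The numbers were to be taken as pairs only where all 8 exceeded 0.1, and the fit without the block was kept as the main one. The replicate block called 8, 16 and 6 pathway genes in translational efficiency in BPL, AMH and BTT, against 1, 6 and 2 without it, changed no direction of a member, and left IMD2 in BPL at 5.43 in mRNA. Without BAN there were 17 lower in BTT footprints and 2 called in BPL efficiency. Without CQC, IMD4 mRNA in BTT was 0.74, 5 pathway genes were higher in BPL footprints and 7 in BTT footprints, and 2 were called in BPL efficiency. Summed with YAR073W and YAR075W, IMD2 footprints in BPL were 3.31.

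Leaving out 1 library at a time gave IMD2 in BPL 5.29 to 5.69 in mRNA, 3.70 to 3.97 in footprints and −1.84 to −1.39 in efficiency, and IMD4 in CQC −2.67 to −1.89 in footprints and −1.34 to −0.57 in efficiency. Pathway genes in mRNA came to 8 to 15 higher and 10 to 28 lower in BPL, 5 to 12 lower in AMH, and 8 to 23 higher and 9 to 21 lower in BTT. In footprints they came to 3 to 10 higher and 2 to 6 lower in BPL, 8 to 24 higher and 2 to 6 lower in AMH, and 5 to 12 lower in BTT. In efficiency they came to 0 to 4 in BPL, 3 to 8 in AMH, 1 to 5 in BTT and 3 to 10 in CQC. Of the named pathway and neighbour genes called in mRNA, which are not all the calls in each list, 17 of 36 in BPL, 33 of 40 in AMH and 15 of 37 in BTT stayed called under every alternative run. Depth limits IMD2 footprints in BAN, CMP and CQC, which rest on 11, 9 and 11 reads.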
